A study of Mus musculus with 8 samples.

Results

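Imprinted genes are expressed from only 1 of the 2 parental copies, and 38 of them in 19 clusters were followed here through their H3K27ac regions in mouse embryonic stem cells. A region belonged to an imprinted gene where the deposited table named that gene as the nearest and placed the region within 100 kb of its transcription start. This gave 164 of the 112137 regions, for 35 of the 38 genes. Another 10 regions of 5 genes (Begain, Grb10, Peg13, Snrpn and Ube3a) lay farther away and were left out. The number per gene ran from 1, in 7 genes, to 18 at Slc38a4. Of the 164 regions, 154 regions of 34 genes had a value above 0 in all 4 groups. By the file's labels, 107 lay in introns, 30 between genes, 10 in exons, 6 at promoters, 6 in 3′ UTRs, 4 at transcript ends and 1 in a 5′ UTR.

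H3K27ac, the acetylation of lysine 27 of histone H3 that marks active enhancers and promoters, was profiled by CUT&Tag, in which an antibody brings the Tn5 transposase to the mark and the cut fragments are sequenced. The 8 libraries formed 4 groups of 2, and the series' text describes the replicates of each group as independent cultures. Wild-type (WT) cells were the R1 line. The double knockout (DKO) carried the label MLL3KO_MLL4KO, with no line named; MLL3 and MLL4 are histone methyltransferases that place H3K4me1 on enhancers. Each genotype was taken as naive cells and as formative cells, the latter 63 hours after withdrawal of LIF2i, the medium additions that hold cells in the naive state. Levels in the deposited table were 1 pooled value per group on a log2 scale, so differences between DKO and WT carry no replicate check and are described by size alone, with a 2-fold difference (1 on the log2 scale) as the limit. They depend on region width and are compared here only within a region. The comparison of formative with naive WT cells was tested over libraries by the authors with DiffBind. In the authors' deposited table the RNA of Kmt2c, which encodes MLL3, had log2 folds in DKO of −1.15 (naive) and −0.91 (formative), and that of Kmt2d, which encodes MLL4, −0.72 and −0.84; which exons were deleted is not stated, so RNA outside them checks little. By DiffBind in the authors' deposited table, 64 of 109 regions of 8 naive pluripotency genes fell and 6 rose in formative WT cells, and 35 of 69 regions of 7 formative genes rose and 5 fell, where 20.8% of all regions rose and 15.8% fell. Otx2, a formative gene, had 2 of 3 regions fallen and 0 risen in the authors' deposited table.

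As background, the parental copy that is silent at an imprinted cluster is set by differential DNA methylation at a control region, laid down in the egg or the sperm and kept through the wave of demethylation in the early embryo. ZFP57 with TRIM28 binds the methylated copy and keeps its methylation, and long noncoding RNAs such as Airn, Kcnq1ot1 and Meg3 start at or near control regions. Pluripotent stem cells in culture are known for unstable imprints, and many of the genes act in growth of the embryo and placenta. H3K27ac read without alleles, as here, cannot tell whether 1 or both copies carry the mark.

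The sequence of the 164 regions was read from the mm10 reference and searched on both strands for TGCCGC, the hexamer bound by ZFP57, and for GCCATNTT, the core of YY1 sites known from the Peg3 and other imprinted promoters. A match of one can share a few letters with a match of the other, and each was counted on its own. In the central 300 bases, 11 of 164 member regions (6.71%) held the hexamer and 11 (6.71%) the YY1 core, against 4.65% and 6.59% of all 112137 regions and 16.9% and 7.31% of all promoter regions. A few regions near gene starts held many matches. The intronic region near the Snrpn start held 10 hexamers, the Mest promoter region 11, a short intronic region of Grb10 4 in 434 bases, and the Peg3 start-proximal intron region 8 hexamers and 12 YY1 cores. As densities these were 3.60, 4.95, 9.22 and 2.14 hexamers per kb. In that order, 0.111%, 0.0268%, 0.00446% and 0.738% of all regions were at least as dense. The Peg3 region also had 3.21 YY1 cores per kb, a density reached by 0.424% of all regions. These are matches of letters, not shown sites.

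The following 300-base windows, each from the plus strand of mm10 and placed where its region holds the most matches outside UTRs, show the repeated motifs; capitals mark matches to either motif, in either orientation (GCGGCA and AAGATGGC are the reverse strand of TGCCGC and of 1 form of GCCATNTT). Peg3 is chr7:6727759-6728058, Mest is chr6:30737415-30737714, Snrpn is chr7:60004333-60004632 and Kcnq1ot1 is chr7:143295558-143295857.
Peg3 start-proximal intron: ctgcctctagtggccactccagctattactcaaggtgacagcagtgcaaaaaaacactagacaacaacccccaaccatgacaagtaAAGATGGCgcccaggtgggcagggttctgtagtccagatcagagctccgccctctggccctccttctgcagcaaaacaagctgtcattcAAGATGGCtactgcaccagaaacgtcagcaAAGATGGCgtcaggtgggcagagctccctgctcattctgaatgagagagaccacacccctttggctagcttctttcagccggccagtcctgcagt
Mest promoter: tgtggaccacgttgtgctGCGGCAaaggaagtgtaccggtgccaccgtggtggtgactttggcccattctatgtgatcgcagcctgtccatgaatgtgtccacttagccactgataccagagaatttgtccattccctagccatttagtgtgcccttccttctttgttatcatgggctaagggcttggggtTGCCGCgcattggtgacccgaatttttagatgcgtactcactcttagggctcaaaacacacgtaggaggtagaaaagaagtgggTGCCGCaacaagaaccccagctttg
Snrpn start-proximal intron: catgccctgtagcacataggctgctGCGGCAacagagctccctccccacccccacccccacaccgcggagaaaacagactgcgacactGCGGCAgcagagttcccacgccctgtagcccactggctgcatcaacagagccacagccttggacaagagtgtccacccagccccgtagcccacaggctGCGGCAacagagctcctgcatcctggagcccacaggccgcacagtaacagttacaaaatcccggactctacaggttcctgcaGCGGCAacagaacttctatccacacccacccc
Kcnq1ot1 start: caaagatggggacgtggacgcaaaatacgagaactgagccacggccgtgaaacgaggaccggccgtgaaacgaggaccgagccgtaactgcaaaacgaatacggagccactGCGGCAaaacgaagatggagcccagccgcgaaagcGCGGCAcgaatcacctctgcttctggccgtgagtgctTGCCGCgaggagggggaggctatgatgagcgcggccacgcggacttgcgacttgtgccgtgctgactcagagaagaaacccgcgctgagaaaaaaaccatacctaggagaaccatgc
The Peg3 window repeats AAGATGGC 3 times and the Snrpn window repeats GCGGCA 4 times, while the Mest and Kcnq1ot1 windows hold 3 hexamers each.

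**Figure D1:**
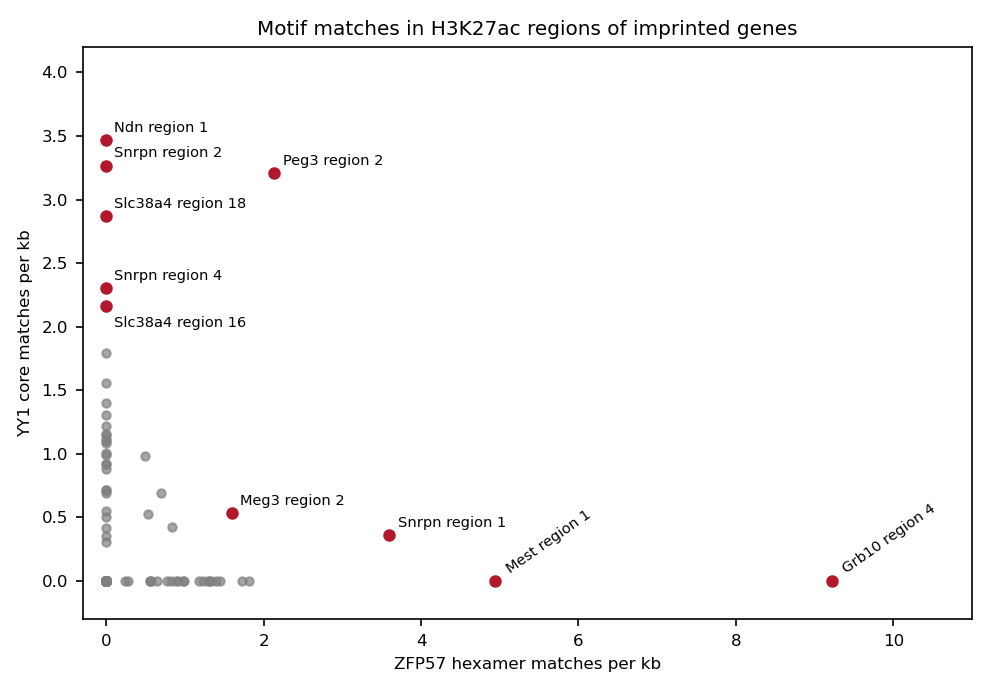
Matches per kb of the ZFP57 hexamer (x axis) and of the YY1 core (y axis) in each of the 164 regions, with regions numbered along the chromosome within a gene and the densest in red. The Grb10, Mest and Snrpn regions lie far along the hexamer axis, the Peg3 region is high on both, and the Ndn and Snrpn region 2 points are high on the YY1 axis alone.

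A pair of regions high in YY1 cores held nearly the same sequence. The only region of Ndn, which encodes the neuronal growth suppressor necdin, and a region upstream of Snrpn lie at chr7:62334568-62335721 and chr7:60162364-60163894. Their windows (chr7:62335000-62335299 and chr7:60162796-60163095) were identical at 297 of 300 bases.
Ndn region: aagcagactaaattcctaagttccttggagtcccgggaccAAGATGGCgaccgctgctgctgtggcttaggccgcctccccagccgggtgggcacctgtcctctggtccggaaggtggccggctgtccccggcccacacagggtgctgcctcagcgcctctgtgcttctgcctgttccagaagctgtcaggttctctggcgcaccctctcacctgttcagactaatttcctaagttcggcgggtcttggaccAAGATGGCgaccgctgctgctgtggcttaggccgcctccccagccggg
Snrpn upstream region: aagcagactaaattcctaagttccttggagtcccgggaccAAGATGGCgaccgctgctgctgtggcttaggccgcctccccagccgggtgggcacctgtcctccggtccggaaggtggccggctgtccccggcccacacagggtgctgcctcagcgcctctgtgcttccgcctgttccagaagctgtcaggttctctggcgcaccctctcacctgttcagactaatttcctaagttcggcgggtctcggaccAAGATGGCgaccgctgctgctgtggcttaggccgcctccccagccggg
Of the 50-base words of these regions, 100% and 99.9% occurred elsewhere on the 21 chromosomes searched, with a median of 1368 and 1724 copies. In 3 other regions assigned to Snrpn the share was 94.8%, 84.8% and 62.8%. Across all 164 regions the median share was 0%, and these 5 were the only regions above 50%. The treatment of reads with many placements is not given in the sources used here. Signal of these 5 regions and of their other copies cannot be told apart, and results resting on them are given with and without them.

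Between naive and formative WT cells the imprinted regions moved in both directions in equal number. DiffBind in the authors' deposited table called 31 of 164 regions risen and 31 fallen at an adjusted p under 0.05 (18.9% each), against 20.8% risen and 15.8% fallen of all regions. By gene, 10 genes had only risen regions, 7 only fallen, 6 both and 12 neither. The same split over all genes is not set beside these counts, which describe the members only. The median strength was 36.5 normalised reads in the risen regions and 220 in the fallen ones, beside 57.3 over the members and 64.4 over all regions. On pooled values 57 of 154 regions were at least 2-fold higher in formative than naive WT (background 38.1%) and 31 lower (background 18.9%).

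Of the regions named or shown above for their hexamers, those of Snrpn, Kcnq1ot1 and Peg3 fell in formative WT cells. Those of Mest and Grb10 did not pass the test. The Snrpn start-proximal intron region (chr7:60002524-60005302) had pooled values of 9.47 in naive WT and 7.14 in formative WT, and the authors' deposited table gave a log2 fold of −2.29 (DiffBind adjusted p = 3.95e-13). The Kcnq1ot1 start region (chr7:143295100-143297548, in an exon of this noncoding RNA inside Kcnq1) went from 8.29 to 6.95, with −1.52 in the authors' deposited table (DiffBind adjusted p = 2.59e-07). At the Peg3 start-proximal intron (chr7:6727167-6730910) the values were 8.67 and 7.77 and the fold in the authors' deposited table −0.82 (DiffBind adjusted p = 0.0104). Beyond the regions named, those with at least 3 hexamers were at Impact, Meg3 and Mcts2. The Impact region 1.02 kb after the start held 5 and fell in the authors' deposited table (DiffBind adjusted p = 5e-05). The Meg3 region 13.8 kb before its start and the Mcts2 region 0.611 kb before its start held 3 each. They did not pass in the authors' deposited table (DiffBind adjusted p = 0.78 and 0.454). The promoter of Zrsr1, a splicing-factor retrogene within an intron of Commd1, stood at 7.95 and 6.46, with −1.57 in the authors' deposited table (DiffBind adjusted p = 1.14e-06). In the Zrsr1 and Commd1 cluster 7 of 14 regions fell and 0 rose by the same test. The Mest promoter did not pass, at 6.56 and 5.92 with −0.63 in the authors' deposited table (DiffBind adjusted p = 0.48). The Grb10 region with the densest hexamers had pooled values of 5.65 in naive WT and 10.04 in formative WT, the opposite direction, with 2.38 in the authors' deposited table (DiffBind adjusted p = 0.126). Grb10 encodes an adaptor that restrains growth signalling; this region read 6.25 in naive DKO and 6.12 in formative DKO.

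Further falls lay at various distances from starts. A region 70.6 kb after the start of Dio3, which encodes the deiodinase that inactivates thyroid hormone, went from 8.41 to 5.60 (chr12:110348721-110350862), and the fold in the authors' deposited table was −2.54 (DiffBind adjusted p = 1.1e-12). In the introns of Sgce, which encodes epsilon-sarcoglycan, 4 regions 61.9 to 70.9 kb from the start fell and 4 regions 9.04 to 37.9 kb from it rose by DiffBind in the authors' deposited table. The fall with the smallest adjusted p was from 7.75 to 5.30, with −2.39 in the authors' deposited table (DiffBind adjusted p = 3.55e-13). At Kcnq1, a potassium channel gene, 2 of 4 regions fell, and at Impact, a translation regulator, 2 of 7, which lie 1.02 and 5.31 kb from the start.

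Of the 31 risen regions, 22 had fewer normalised reads than the median of all regions and 9 had more, and 5 were listed at 0 in naive WT. The only region of the organic cation transporter gene Slc22a3 went from 2.48 to 9.29, with 5.81 in the authors' deposited table (DiffBind adjusted p = 5.87e-04). At Nap1l5, a nucleosome assembly gene inside Herc3, 3 of 4 regions rose and 0 fell. At Peg13, a noncoding RNA inside Trappc9, 3 of 6 rose, at Airn 3 of 8, and at Nnat, which encodes neuronatin, 2 of 8. The risen Airn regions 25.7 and 7.13 kb before its start lay in Igf2r outside Airn. The risen region 8.84 kb after the Airn start lay within both genes. Usp29 had 2 of 4 risen regions. The best supported of them went from 5.33 to 8.06, with 2.99 in the authors' deposited table (DiffBind adjusted p = 1.45e-08). The region assigned to the growth inhibitor Cdkn1c, which lies in an intron of Kcnq1, went from 6.31 to 9.21, with 2.91 in the authors' deposited table (DiffBind adjusted p = 0.0179). For H19, the growth-restraining noncoding RNA, 1 of 2 regions rose, 13.3 kb before the start, from 4.32 to 9.01. Dlk1, a Notch-like ligand gene, had 2 risen regions, and both were listed at 0 in naive WT.

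**Figure D2:**
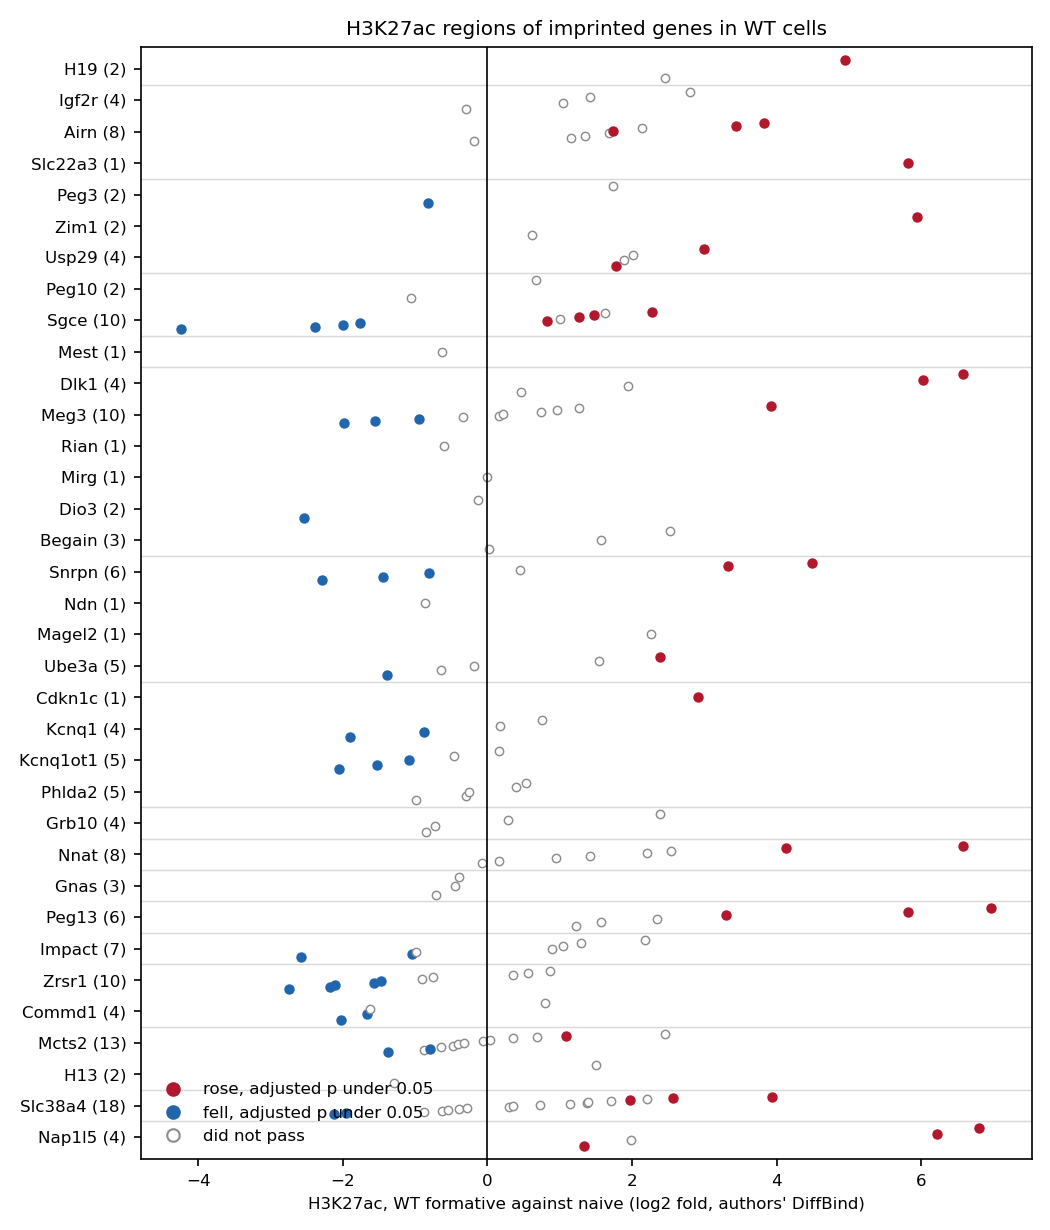
DiffBind log2 fold of formative against naive WT cells (x axis) for each region, by gene (y axis, with the number of regions) and in cluster order; filled points passed an adjusted p of 0.05. Falls reach −4.23 at Sgce and rises reach 6.97 at Peg13, and the filled points of Zrsr1 and Commd1 are all falls.

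In DKO cells the imprinted genes did not move as a block. Taking for each gene the median over its regions, 7 of 34 genes were at least 2-fold higher in naive DKO than naive WT and 5 at least 2-fold lower; in formative cells 4 were higher and 13 lower. Of all 18201 genes with a region within the same distance, 14.2% were higher and 20.0% lower in naive cells, and 7.54% and 37.4% in formative cells. The median over the 34 genes was 0.09 in naive and −0.74 in formative cells, beside −0.01 and −0.62 over all these genes. By region, naive DKO was higher at 40 of 154 (26%, background 19.2%) and lower at 26 (16.9%, background 26.3%). Formative DKO was higher at 22 (14.3%, background 11.2%) and lower at 46 (29.9%, background 39.3%). Without the 5 repeated regions, the lower counts were 23 and 43 of 149.

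The medians moved with the scaling of the groups. Over all regions the median formative DKO difference was −0.63. With quantile normalization the members' median became 0.19, with scaling to promoter regions −1.37 and with centring −0.11. The naive median was 0.15, −0.48 and 0.19 under the same 3 scalings. All 12 naive and 17 formative gene medians past 2-fold kept their sign under the 3 other scalings, and 8 and 5 of them stayed past 2-fold in each. For naive cells these 8 were Slc22a3, Peg13, Peg10, Airn and Dlk1 above 0, and Dio3, Mirg and Snrpn below. At Slc22a3 and some Peg13 regions naive WT reads were near the floor, which scaling does not change. The formative 5 were Begain, Cdkn1c, Nnat, Peg3 and Peg13, all below 0. Between the states of DKO cells, 20 of 154 regions were at least 2-fold higher in formative cells (background 16.6%) and 34 lower (background 17.9%).

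**Figure D3:**
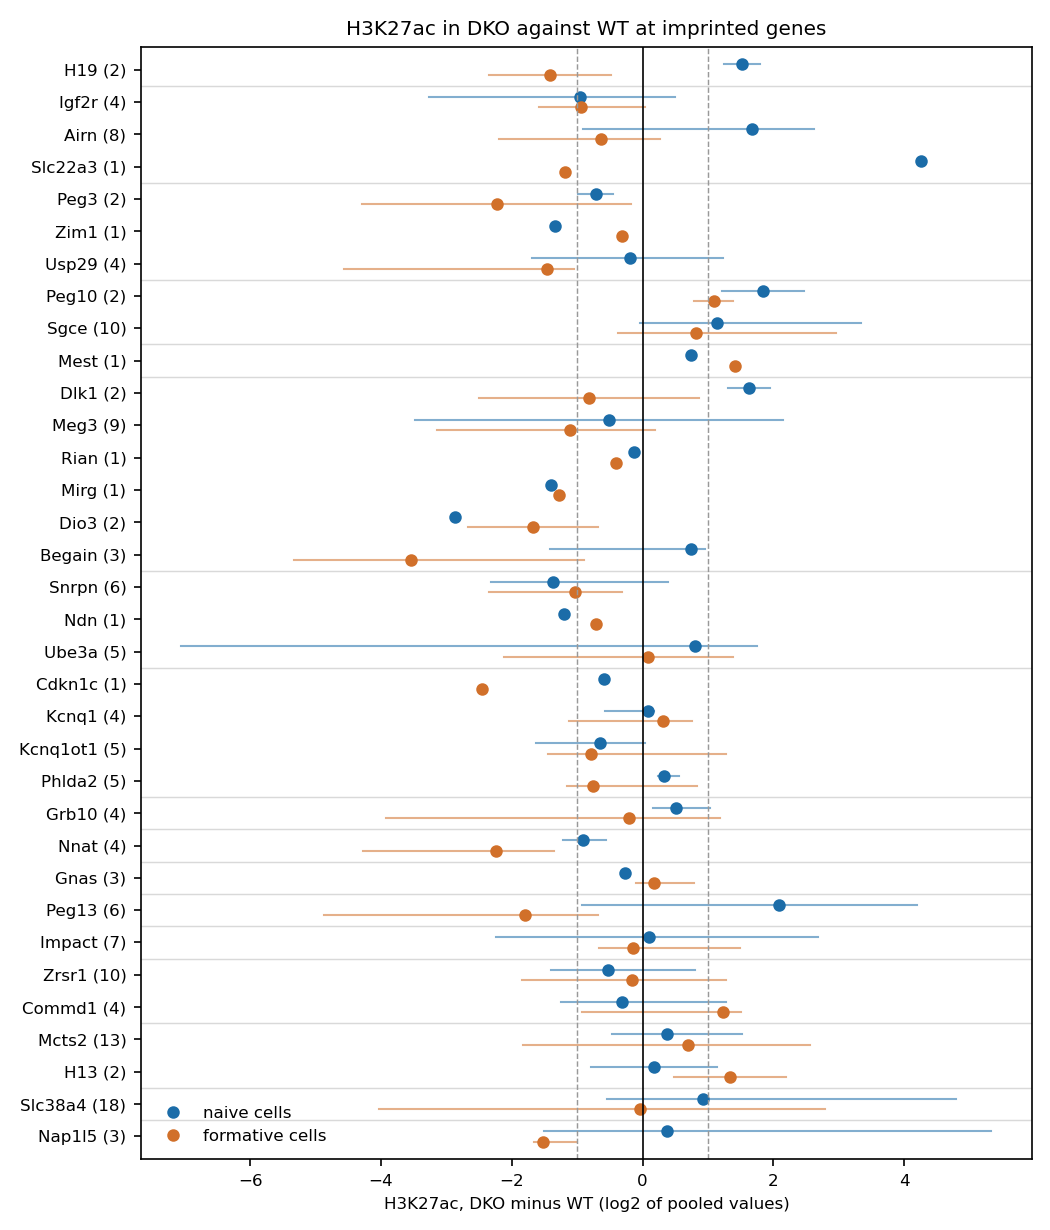
DKO minus WT H3K27ac (x axis, log2 of pooled values) for 34 genes in cluster order, as the median (point) and range (line) over a gene's regions, whose number is in brackets; dashed lines mark 2-fold. Peg10 lies right of the 2-fold line in both states, Dio3, Mirg and Snrpn left of it in both, and H19, Slc22a3 and Peg13 right in naive and left in formative cells.

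The Peg10 and Sgce cluster stood higher in DKO in both states. Peg10, a gene derived from a retrotransposon and needed for the placenta, and Sgce start back to back. The region called the Sgce promoter (chr6:4746724-4747496) covers both starts, at 4747306 for Peg10 and 4747207 for Sgce. Its pooled values were 7.45 in naive WT, 8.86 in formative WT, 10.79 in naive DKO and 10.43 in formative DKO. Both DKO groups were above both WT groups, by 3.34 in naive and 1.57 in formative cells. Over both WT states the authors' deposited table gave this region 42.8 normalised reads, under the median of all regions, 64.4. A Peg10 intron region (chr6:4748859-4749481) read 9.83, 8.80, 11.04 and 10.19 in the same order. A Sgce intron region 13.5 kb from the start (chr6:4732747-4734564) read 7.46, 8.21, 10.57 and 9.58. Gene medians were 1.83 and 1.09 for Peg10 and 1.14 and 0.82 for Sgce in naive and formative cells. The formative Peg10 value was under 2-fold with scaling to promoter regions, at 0.45. Peg10 was the only member at least 2-fold higher in both states, as were 363 of all 18201 genes. On the lower side, 3 of 34 members (Dio3, Mirg and Snrpn) passed 2-fold in both states, as did 2158 of the 18201 genes.

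Single regions of Slc38a4 and the Mest promoter also had higher values in DKO in both states. Slc38a4 encodes an amino acid transporter of placenta and liver. Its intronic region at chr15:97047628-97050901 read 8.04 in naive WT, 6.03 in formative WT, 9.95 in naive DKO and 8.82 in formative DKO. It fell in WT (−1.95 in the authors' deposited table, DiffBind adjusted p = 3.38e-07) and was higher in DKO by 1.91 and 2.79. A region 3.5 kb before the start (chr15:97058991-97059915) read 8.28, 7.79, 10.41 and 9.27. Among regions with a high mean level over the 4 groups, that with the largest DKO difference lay 9.4 kb after the start. It read 5.60, 8.18, 8.46 and 8.16, higher in naive DKO by 2.86 and at −0.02 in formative DKO. Over all 18 regions, the Slc38a4 median was 0.92 in naive and −0.03 in formative cells, so the values of these regions are not those of the gene. The Mest promoter (chr6:30736261-30738484), start of a gene that promotes growth, read 6.56, 5.92, 7.29 and 7.33. It was higher in DKO by 0.74 and 1.41 and its formative difference was the highest gene median among the 34, before H13 at 1.34 and Commd1 at 1.22. With scaling to promoter regions these 3 were under 2-fold, Mest at 0.78.

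**Figure D4:**
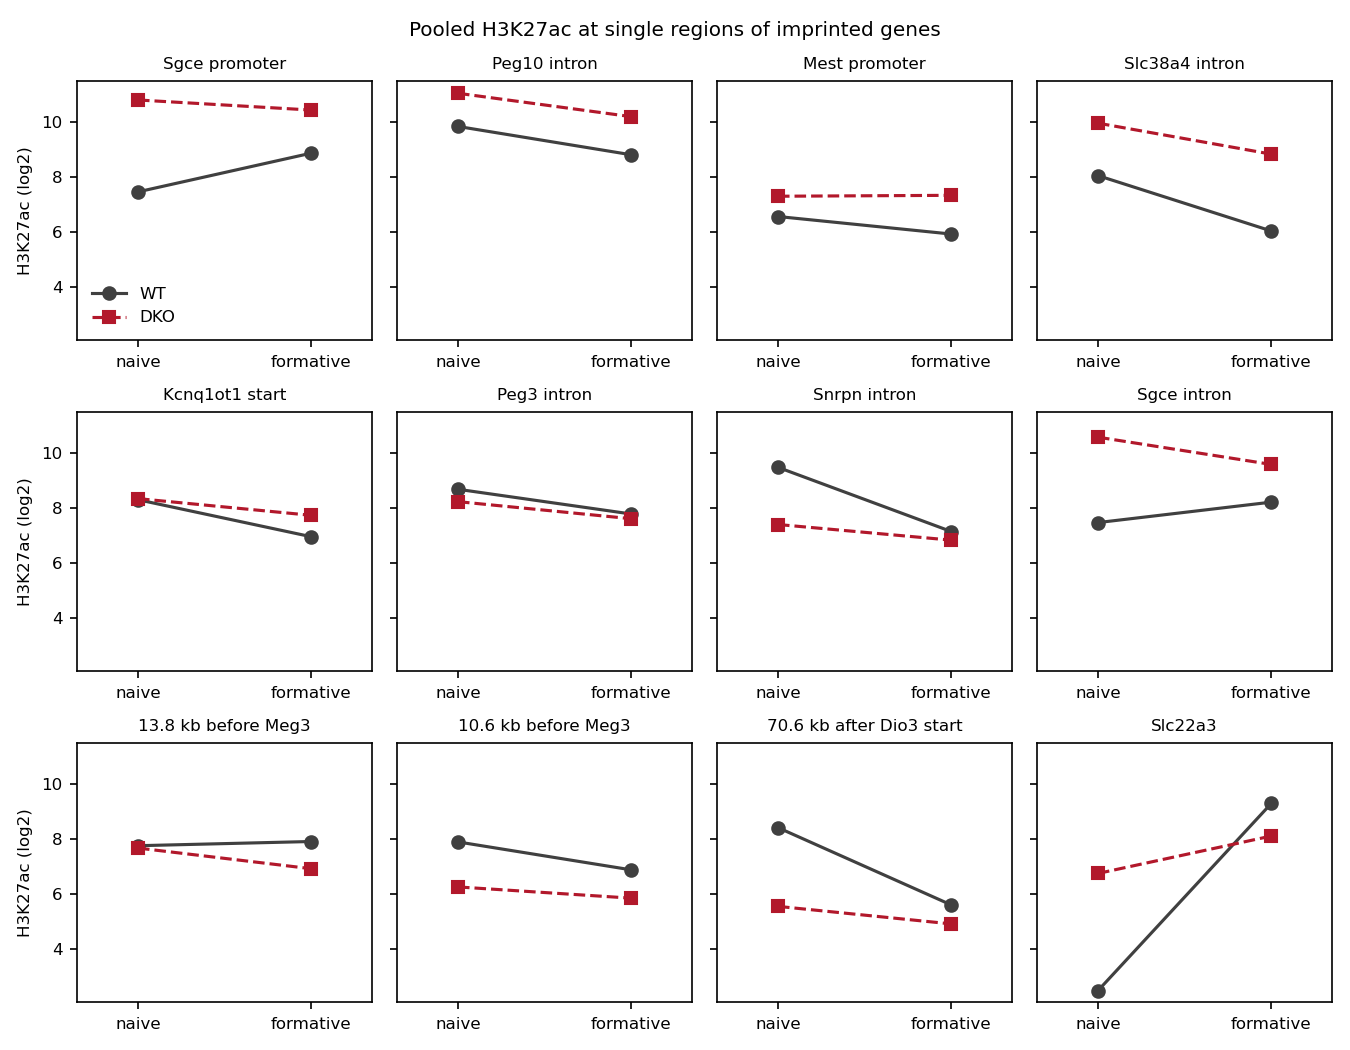
Pooled H3K27ac (y axis, log2) in naive and formative cells (x axis) of WT (circles) and DKO (squares) at 12 regions; there is 1 pooled value per group, so no error bars. The DKO line runs above the WT line at the Sgce, Peg10, Mest and Slc38a4 regions and below it at the Snrpn, Meg3 and Dio3 regions.

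At the Dlk1 to Dio3 cluster on chromosome 12, values in DKO were mostly lower. The median over its 6 genes was −0.32 in naive and −1.20 in formative cells, beside −0.01 and −0.62 over all genes. Under quantile normalization the cluster's medians were −0.11 and −0.23. The Dio3 region shown above to fall in WT read 8.41 in naive WT, 5.60 in formative WT, 5.54 in naive DKO and 4.91 in formative DKO. Naive DKO cells thus had a value close to that of formative WT cells. Dio3 had the lowest naive gene median, −2.87, followed by Mirg at −1.40. Mirg is a noncoding host of microRNAs, and its promoter region (chr12:109734456-109735723) read 7.20, 7.09, 5.80 and 5.81. Upstream of the noncoding RNA Meg3 lies the stretch known for the cluster's intergenic control region. The region 10.6 kb before the Meg3 start (chr12:109528619-109532213) read 7.89, 6.87, 6.25 and 5.84, lower in DKO by −1.64 and −1.03. Its neighbour 13.8 kb before the start (chr12:109526300-109528181) read 7.75, 7.90, 7.66 and 6.91, close to WT in naive cells. A weak region 7.19 kb before the start read 8.26, 8.46, 4.78 and 5.33. Dlk1 went the other way in naive cells, with a median of 1.62 over 2 regions and −0.83 in formative cells. Begain, a synaptic gene at the cluster's edge, had the lowest formative value of all members, −3.54, over 3 weak regions in Wdr25 introns. Windows of the Meg3 region 10.6 kb before the start and the Dio3 region (chr12:109530294-109530593 and chr12:110349123-110349422) hold 1 hexamer and 2 YY1 cores, in that order. Over their full length these 2 regions held 1 hexamer and 3 YY1 cores. The Meg3 region 13.8 kb before the start held 3 hexamers and 1 YY1 core.
Meg3 upstream region: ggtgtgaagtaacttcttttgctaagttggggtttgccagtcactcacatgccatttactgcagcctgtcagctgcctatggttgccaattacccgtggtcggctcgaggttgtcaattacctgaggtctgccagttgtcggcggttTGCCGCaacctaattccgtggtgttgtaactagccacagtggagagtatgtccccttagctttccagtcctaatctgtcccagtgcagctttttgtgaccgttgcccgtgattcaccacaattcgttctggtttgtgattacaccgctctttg
Dio3 distal region: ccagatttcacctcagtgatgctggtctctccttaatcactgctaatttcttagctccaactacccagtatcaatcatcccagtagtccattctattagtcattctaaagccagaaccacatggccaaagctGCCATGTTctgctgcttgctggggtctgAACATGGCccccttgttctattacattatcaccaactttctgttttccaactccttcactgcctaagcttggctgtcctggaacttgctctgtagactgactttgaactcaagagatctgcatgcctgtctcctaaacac

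In the Snrpn and Ube3a cluster the clearest difference was in naive cells. The Snrpn start-proximal intron region with its 10 hexamers read 9.47 in naive WT, 7.14 in formative WT, 7.39 in naive DKO and 6.82 in formative DKO, so naive WT alone was high. The DKO difference was −2.08 in naive and −0.31 in formative cells. The Snrpn gene median over 6 regions was −1.37 and −1.03. Without the 4 Snrpn regions that are over 50% repeated it was −1.42 and −0.62, so the formative value no longer passed 2-fold. In 1 of the 2 regions left, 30.3% of the words still occurred elsewhere. The repeated upstream region read 9.05, 8.23, 7.06 and 6.38 and the Ndn region 8.40, 7.49, 7.20 and 6.77; reads from other copies cannot be told apart from these. Magel2 had a single weak region, at 6.29 and 8.99 in WT and listed at 0 in both DKO groups. Ube3a, the ubiquitin ligase of Angelman syndrome and a maternal gene in neurons, had medians of 0.81 and 0.09. Its 5′ UTR region (chr7:59227743-59230115) read 9.88, 8.56, 10.19 and 9.94.

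Other genes passed 2-fold in formative cells and not in naive cells, a difference that was not tested. Peg3, a zinc finger gene of the paternal copy, had formative medians of −2.23 against −0.72 in naive cells. This rested on a weak region (chr7:6723514-6724141) at 6.90, 8.99, 5.91 and 4.69. The strong start-proximal intron region with the YY1 cores read 8.67, 7.77, 8.22 and 7.60, within 0.45 of WT in both states. Cdkn1c was at −0.59 and −2.45, on 1 region at 6.31, 9.21, 5.72 and 6.75. Nnat was at −0.91 and −2.25 over the 4 of its 8 regions above 0 in all groups. Regions 42.7, 13.6 and 12.8 kb before its start were left out. They were listed at 0 in naive DKO, against 6.47, 6.25 and 4.83 in naive WT. Another, 21.6 kb before it, was at 0 in naive WT and 6.71 in naive DKO. That the naive Nnat median is under 2-fold thus depends on the filter on zeros. In the medians of Peg3, Cdkn1c and Nnat the formative WT value was the high one.

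Opposite differences in the 2 states were seen for H19, Slc22a3 and Peg13. These were at least 2-fold higher in naive DKO and at least 2-fold lower in formative DKO, as were 873 of 18201 genes, and no member had the reverse order, as had 106. Slc22a3 read 2.48 in naive WT, 9.29 in formative WT, 6.74 in naive DKO and 8.10 in formative DKO, and both DKO groups lay between the WT groups. H19 medians were 5.02, 8.63, 6.53 and 7.21, again with DKO between. Peg13 medians were 4.97, 8.83, 7.14 and 6.84. Between states the WT difference was 6.81, 3.61 and 4.36 for Slc22a3, H19 and Peg13, and the DKO difference 1.36, 0.67 and 0.21. The WT difference between states and the naive DKO difference share the naive WT value. The authors' deposited table gave 19.2 normalised reads at the first H19 region, the lowest of the 164, 103 at the second and 21.6 at Slc22a3. Peg13 regions had 21.6 to 53.4, all under the median of all regions, 64.4. These reads cover both WT states. For naive WT alone, log2 reads were −0.41 at Slc22a3 and 0.28 at the first H19 region. They were also −0.41 at the Peg13 regions 27.5 kb after and 78 kb before the start. The naive DKO differences of these regions thus start from naive WT values near the floor.

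The remaining members are given by their medians in naive and formative DKO against WT. Over all 34 genes the sign was the same under the 4 scalings for 26 in naive and 22 in formative cells. Among the values that follow it was not the same for Rian, Kcnq1, Grb10 and Impact in both states, for naive Phlda2, Mcts2, H13 and Nap1l5, and for formative Airn, Zim1, Kcnq1ot1, Gnas and Zrsr1. Airn medians were 1.67 and −0.63, and those of Igf2r, the decoy receptor of the growth factor IGF2, −0.96 and −0.95. Zim1 was at −1.34 and −0.31 on a promoter region, and Usp29 at −0.19 and −1.45. In the Kcnq1 cluster, Kcnq1ot1 was at −0.65 and −0.79, Kcnq1 at 0.08 and 0.31, and Phlda2, a brake on placental growth, at 0.32 and −0.76. The Kcnq1ot1 start region with its hexamers read 8.29, 6.95, 8.33 and 7.73, so naive DKO matched naive WT to within 0.04. Grb10 was at 0.51 and −0.21, Gnas at −0.27 and 0.17, Impact at 0.10 and −0.15, and Rian at −0.13 and −0.41. Zrsr1 was at −0.53 and −0.16, Commd1 at −0.31 and 1.22, Mcts2 at 0.37 and 0.70, H13 at 0.17 and 1.34, and Nap1l5 at 0.37 and −1.52. Zrsr1 and Mcts2 are retrogenes with a parent copy elsewhere, so their RNA values are uncertain.

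H3K4me1, the mark placed by MLL3 and MLL4, was lower in DKO at few imprinted regions. In the authors' deposited table it was at least 2-fold lower in naive DKO at 16 of 154 member regions (10.4%, background 18.9%) and higher at 12 (7.79%, background 4.59%). In formative DKO it was lower at 17 (11%, background 15.5%) and higher at 27 (17.5%, background 10.5%) in the authors' deposited table. Of the 16 naive regions with lower H3K4me1 in the authors' deposited table, 8 (50%) had at least 2-fold lower H3K27ac, against 18 of the other 138 (13%). Over all regions these shares were 47.0% and 21.5%. For formative cells they were 8 of 17 (47.1%) against 38 of 137 (27.7%) among members, and 57.1% against 36.0% over all. The Dio3 region above had H3K4me1 folds of −1.46 and −0.30 in the authors' deposited table. The Sgce promoter had 1.17 and 1.19 there, and the Snrpn start-proximal intron −0.04 and 0.35, all from the authors' deposited table.

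RNA folds were present for 22 of the 35 genes came from other libraries and carry no error; H19, Airn, Slc22a3, Sgce, Dlk1, Meg3, Rian, Snrpn, Cdkn1c, Kcnq1, Grb10, Nnat and Gnas had none. In the authors' deposited table, 5 of 22 were at least 2-fold higher in naive DKO (background 8.54%) and 3 lower (background 11.2%), and 7 were higher in formative DKO (background 5.87%) and 1 lower (background 5.05%). The median over the 22 genes was 0.45 and 0.53, beside 0.03 and 0.06 over all 9781 genes with a fold in the authors' deposited table. Peg10 led with 3.91 in naive and 1.87 in formative DKO, followed by Nap1l5 with 3.67 and 2.65, in the authors' deposited table. Slc38a4 was at 1.99 and 1.38, Impact at 1.05 and 1.39, Mest at 0.94 and 1.71, and Peg13 at 1.04 and 0.32 in the authors' deposited table. Zim1 and Ndn reached 1.46 and 1.03 in formative DKO in the authors' deposited table. The low side held Dio3 at −3.27 and −0.86, Mirg at −2.14 and −0.77, Begain at −1.12 and 0.07, and Phlda2 at −0.29 and −2.62 in the authors' deposited table. So 4 of 22 genes (18.2%), Peg10, Nap1l5, Slc38a4 and Impact, were at least 2-fold higher in both states, beside 1.95% of all 9781 genes.

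The dCD cells carry catalytically dead MLL3 and MLL4, and their folds share the WT side with those of DKO. In the authors' deposited table, 5 of 22 members were at least 2-fold higher in naive dCD (background 8.05%) and 3 lower (background 5.19%). In formative dCD 6 were higher (background 4.72%) and 4 lower (background 3.62%) in the authors' deposited table. Peg10 was at 4.09 in naive and 2.09 in formative dCD, Nap1l5 at 3.47 and 2.76, and Mest at 2.70 and 2.20 in the authors' deposited table. Dio3 was at −2.06 and −0.96 and Phlda2 at −1.51 and −2.81. Genes with a sign opposite to DKO included Mirg, at 0.39 and 1.14, and Peg13, at −1.63 and −2.70, in the authors' deposited table. Another set of RNA folds against WT carries the label CKO, which the sources used here do not explain. In the authors' deposited table, naive and formative CKO folds were −0.32 and −1.15 for Peg10, 1.37 and 0.46 for Nap1l5, 0.76 and 0.15 for Slc38a4, −0.37 and −0.06 for Impact, and 0.11 and 0.02 for Mest. Dio3 stood at −0.08 and −0.10 there and Phlda2 at 1.57 and 0.20, again from the authors' deposited table. The median over the 22 genes in CKO was −0.01 in naive and −0.06 in formative cells. Whether DKO, dCD and CKO differ at these genes was not tested.

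**Figure D5:**
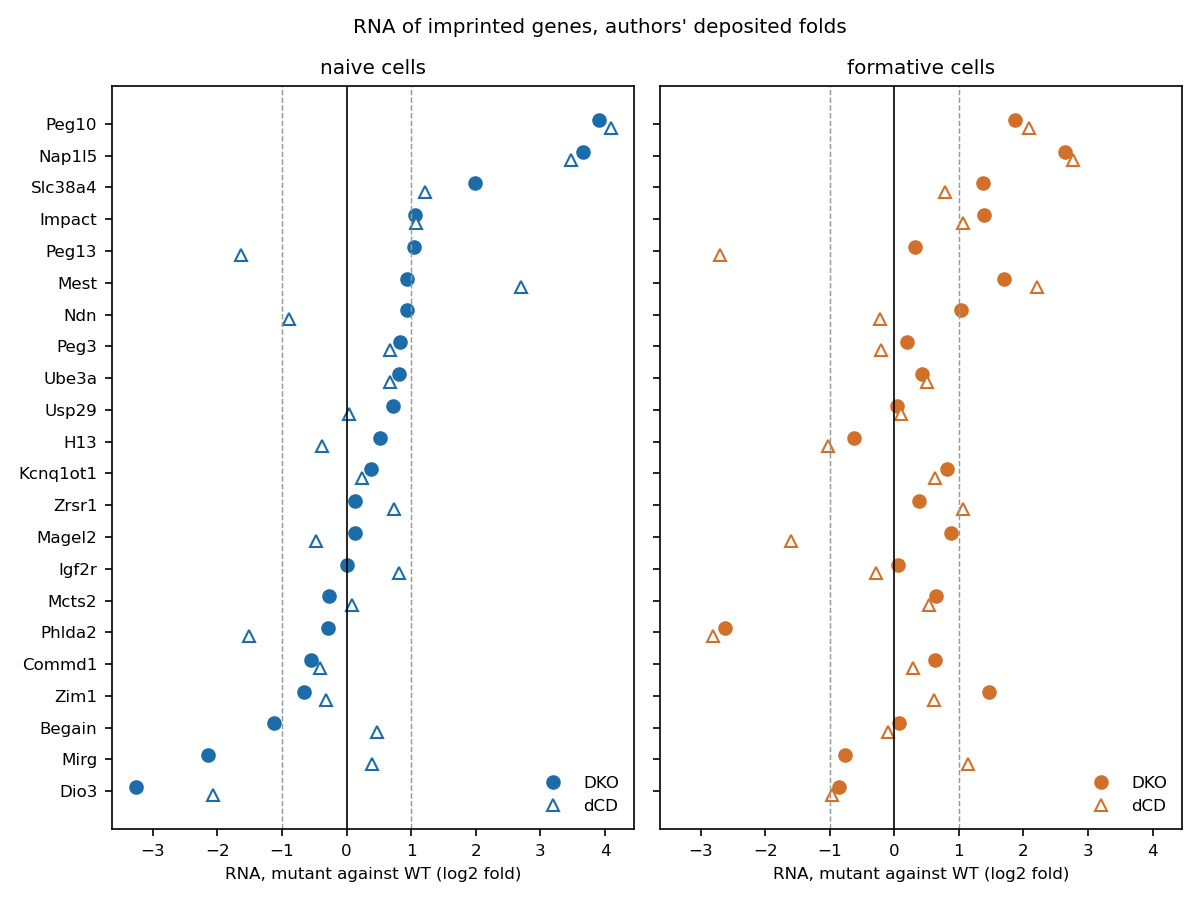
RNA log2 fold against WT (x axis) in DKO (filled) and dCD (open) cells for 22 genes (y axis, ordered by the naive DKO fold), naive on the left and formative on the right; dashed lines mark 2-fold. Peg10 and Nap1l5 lie past 2-fold on the right in all 4 columns of points, and Mirg and Peg13 have DKO and dCD points on opposite sides of 0 in naive cells.

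By the copy that is usually expressed, the 14 paternal genes had an RNA median of 0.88 in naive DKO and 0.85 in formative DKO, with 5 and 6 at least 2-fold higher and 1 and 0 lower in the authors' deposited table. The 6 maternal genes with a fold had medians of −0.14 and −0.28, with 0 and 1 higher and 1 and 1 lower in the authors' deposited table. Of all 9781 genes, 8.54% and 5.87% were higher and 11.2% and 5.05% lower. The maternal genes H19, Slc22a3, Meg3, Rian, Cdkn1c and Kcnq1 had no fold. A difference between paternal and maternal genes was not tested. H3K27ac medians were 0.23 and −0.76 over 18 paternal genes and −0.02 and −0.85 over 12 maternal genes. Across the 21 genes with both readouts, H3K27ac and RNA differences between DKO and WT had Pearson's r = 0.67 and Spearman's rho = 0.60 in naive cells and r = 0.25 and rho = 0.40 in formative cells. These are given as a description over genes, several of which share a cluster. In formative cells 12 of the 21 (57.1%) had a lower H3K27ac median with a higher RNA, beside 34.2% of all 9600 genes with both. Under quantile normalization these were 6 of 21 (28.6%) and 19.3%. Nap1l5 is an example, with H3K27ac medians of 0.37 and −1.52 beside the RNA folds above. Its naive regions spread from −1.51 to 5.33.

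Genes of other lists were set beside the members. Of 20 factors that keep or remove DNA methylation, 19 had regions; 24 of 164 of these rose and 46 fell in WT by DiffBind in the authors' deposited table, with Tet2, a 5-methylcytosine dioxygenase, at 15 of 18 fallen. The RNA of Dnmt3l, a cofactor of de novo methylation, stood at −3.53 and −2.01 in DKO and that of Dppa3, which protects imprints in the zygote, higher by 1.37 and 0.46, both from the authors' deposited table. The H3K27ac median of Dnmt3b was −1.61 and −2.29 and that of Zfp57 0.03 and 0.45. Of 47 neighbours of the clusters 38 had regions, of which 58 of 264 rose and 56 fell in WT in the authors' deposited table. Rtl1, a paternal gene between Meg3 and Mirg, was at −3.11 in naive DKO RNA and −0.28 in naive dCD RNA in the authors' deposited table; it overlaps antisense transcripts, and the strand of counting is not given in the sources used here. Markers of other cells were also read. For trophoblast genes, whose tissue expresses many imprinted genes, the RNA of 3 of 4 was at least 2-fold higher in naive DKO (median 2.33, background 8.54%) in the authors' deposited table. These 3 were the keratin genes Krt7 (3.29), Krt8 (1.71) and Krt18 (2.95), with Hand1 at 0.56, while Elf5 and Eomes had no fold. In formative DKO 1 of 4 was higher, Hand1 at 1.21 (median 0.30, background 5.87%), in the authors' deposited table. Both primitive endoderm genes with a fold were 2-fold higher in naive DKO RNA (median 1.95), as were 1 of 3 fibroblast and 1 of 2 neural genes, in the authors' deposited table. In formative DKO RNA 1 of 2 endoderm genes (Gata6 at 1.02), 2 of 3 fibroblast genes (Col1a2 at 2.01 and Twist1 at 1.05, with Thy1 at −2.82) and 1 of 2 neural genes (Sox1 at 2.49) were 2-fold higher in the authors' deposited table. In WT formative against naive cells 10 of 21 trophoblast regions rose, 5 of 13 endoderm, 4 of 13 fibroblast and 3 of 13 neural, in the authors' deposited table. Falls among these lists lay at Col3a1 (2 of 2 regions), Twist1 (1 of 1) and Sox1 (2 of 6) in the authors' deposited table. The background was 20.8% risen and 15.8% fallen. The part of such cells in the members' values was not tested, and in bulk samples fewer cells of a type and less signal per cell cannot be told apart.

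For 3 members no region carried their name. The only H3K27ac regions within 100 kb of the Igf2 start were assigned to H19 or Mir675, and 1 region near Rasgrf1 was assigned to Ctsh. Inside Plagl1, a growth-controlling zinc finger gene (chr10:13060504-13131694), 7 regions were assigned to Hymai, the noncoding RNA that starts there. Of these 6 fell and 0 rose in WT by DiffBind in the authors' deposited table. The widest, chr10:13105531-13113887, read 7.47 in naive WT, 4.21 in formative WT, 5.94 in naive DKO and 5.41 in formative DKO, with −3.13 in the authors' deposited table (DiffBind adjusted p = 9.1e-48). All 7 were lower than WT in naive DKO and higher than WT in formative DKO, with medians of −1.14 and 0.92. The smallest formative differences were 0.036 and 0.038, and the signs were not read under the other scalings. The 7 regions were chosen after their values were seen and are not counted among the 164.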

How the data were processed

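H3K27ac CUT&Tag libraries of 4 groups, 2 libraries each, were given as a single table of 112137 regions in mm10. Per the submitters' processing notes, Trim Galore, Bowtie2, SEACR, DiffBind and deepTools were used by the authors; their versions, the treatment of multi-mapping reads and the depth of each library are not in the sources used. The H3K27ac values deposited by the authors are log2 levels, 1 pooled value per group, and fall with region width (fitted exponent −1.97 in naive WT and −2.00 in formative WT). DiffBind log2 folds with p-values and adjusted p-values were deposited by the authors for formative against naive WT only; RNA and H3K4me1 log2 folds are deposited comparisons of libraries outside this series. Another 12 columns of RNA and H3K4me1 levels were not used.

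Regions were assigned by the deposited nearest gene and a limit of 100 kb. Differences of pooled log2 values were taken where all 4 groups were above 0 (105643 regions; 6494 were listed at 0), a gene's value was the median over its regions, and 2-fold was the limit. Every member is reported. Regions were called high where their mean level over the 4 groups, with the division by width undone, was above the median of all regions. DKO values enter this mean, so a region high in DKO could pass through them. For single regions the rule took the nearest to the start and that with the smallest adjusted p. It also took that with the largest DKO difference among high regions, and those the results turn on are printed. Outside it, and chosen after their values were seen, are the Sgce region 13.5 kb from the start, the Slc38a4 region 3.5 kb before it, the Meg3 regions 13.8 and 7.19 kb before it, the weak Peg3 region, and regions with repeated sequence. The members and lists were chosen with earlier results of these data known. Python 3.11.15, pandas 2.3.3 and numpy 2.4.6 were used; counting was tested on simulated data. Gene coordinates are from GENCODE. Alternatives were other adjusted p, distance, scaling, zero and promoter rules; leaving out repeated regions was added after seeing the data. Where the design foresaw tests on library counts for DKO, pooled values allowed none.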

Additional observations from a re-analysis of the deposited data

Results flagged for a closer look

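Of 34 genes, 13 had DKO differences of opposite sign in the 2 states, while 7 were above 0 in both and 14 below 0 in both. Of all 18201 genes, 3520 were above 0 in both states and 7361 below 0 in both, a similar split. In 4 genes the opposite effects were each at least 2-fold, for H19, Slc22a3 and Peg13 between genotypes in the 2 states and for Begain between states in the 2 genotypes; none of these differences was tested, since each rests on 1 pooled value per group. The formative DKO difference less the naive one was −5.45 on the log2 scale for Slc22a3 (1 region), −3.88 for Peg13 (6 regions, 5 of them higher in naive DKO and 6 lower in formative DKO), −2.93 for H19 (2 regions, both higher in naive and lower in formative DKO) and −4.27 for Begain (3 regions). The Begain median was 1.47 higher in formative than naive cells of WT and differed by −3.02 between the same states of DKO.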

How the results depend on the processing

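Of 62 regions called between the WT states, 41 passed at an adjusted p of 0.01, 18 risen and 23 fallen; requiring 2-fold, a 50 kb limit or leaving out the 5 repeated regions, the last added after seeing the data, left 53 to 58. Medians over members are log2 differences. With quantile normalization they were −0.15 (WT, formative against naive; 0.27 as reported) and 0.19 (formative DKO against WT; −0.74 as reported). With scaling to promoter regions they were 0.44 (WT), −0.091 (DKO, formative against naive; −0.21 as reported), −0.48 (naive DKO against WT; 0.09 as reported) and −1.37 (formative DKO against WT), and with centring −0.21 (WT), 0.19 (naive DKO) and −0.11 (formative DKO). Promoter regions alone gave −0.27, 0.018, 0.49 and 1.07 in the order WT, DKO between states, naive DKO and formative DKO. The WT median was 0.38 without a filter on zeros, 0.49 at 50 kb and 0.38 without repeated regions. Taken over regions, the naive DKO median was 0.25 and the formative DKO median −0.39, and without repeated regions the latter was −0.63. With 1 value per cluster the naive RNA median was 0.81 in place of 0.45. The causes of these moves were not tested. The other 19 alternatives of these summaries stayed close to the reported value. No paired analysis was possible because levels are pooled per group, and for the same reason no replicate could be left out.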
